A study of Rattus norvegicus with 24 samples.

Results

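A group of 9 genes known from glutamate-releasing neurons below the cortex was followed through the libraries: Slc17a6, Pou4f1, Barhl1, Foxb1, Lhx5, Lhx9, Tcf7l2, Lef1 and Shox2. They were taken by symbol, as 9 of the 37403 genes in the deposited tables, 1 for the ventral tegmental area (VTA) and 1 for the nucleus accumbens (NAC) of the rat, and all 9 were found in both tables. They serve as a guide to what a tissue punch of the VTA holds besides the VTA, because the mammillary bodies, the red nucleus and the thalamus lie close to it. Levels are given as CPM, the estimated count of a gene per 1000000 of the total of its library. The deposited counts were already scaled per transcript length, so the levels of different genes can be set side by side.

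The libraries came from bilateral punches of first-generation rats at least 60 days old, labelled male, whose fathers had self-administered saline (SAL-sired) or morphine (MOR-sired) over 60 days. For the VTA 5 libraries represented each kind of father, and for the NAC 7. No strain, litter or animal is named for the libraries, so p-values measure only the spread between these samples. Library totals ran from 21.9 to 41.3 M estimated counts (M, 1000000) in the NAC and from 23.6 to 43.5 M in the VTA. In a bulk punch, fewer cells of a type and less RNA per cell cannot be told apart.

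Several VTA libraries stood apart before any comparison. SAL-sired VTA 5 and MOR-sired VTA 3, 4 and 5 held 78.9 to 108 CPM of Xist, the transcript of the silenced X chromosome of females, against their label. SAL-sired VTA 3 and 4 held 0.573 and 0.330 CPM of Tph2, the enzyme of serotonin synthesis, where the other 8 held 14.9 to 156 CPM. The main VTA results that rest on these libraries are given with and without them below. Xist was held by 1 SAL-sired and 3 MOR-sired VTA libraries. Leaving them out keeps SAL-sired VTA 1 to 4, the pair almost without Tph2 among them, and only MOR-sired VTA 1 and 2. The region labels matched the defining marker of VTA neurons: Th, the rate-limiting enzyme of dopamine synthesis, stood at 1293 to 2881 CPM in the VTA and at 0.686 to 1.87 CPM in the NAC. The NAC punches varied in make-up as well. There 5 striatal genes summed to 1129 to 4218 CPM in SAL-sired and 386 to 5909 CPM in MOR-sired libraries. The sums of 6 cortical glutamatergic genes were 698 to 1490 CPM and 146 to 1606 CPM.

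Neurons that release glutamate load it into vesicles through a vesicular transporter. Cortical neurons mainly use VGLUT1 (Slc17a7), and those of the thalamus, hypothalamus and brainstem mainly use VGLUT2 (Slc17a6). The VTA has VGLUT2 neurons of its own, some of which also make dopamine, so Slc17a6 alone does not mark a neighbour. Transcription factors give the finer address. Foxb1, Barhl1 and Lhx5 are known from the mammillary region, Pou4f1 (BRN3A) from the red nucleus and medial habenula, and Tcf7l2, Lef1, Lhx9 and Shox2 from the thalamus and its borders. Tcf7l2 and Lef1 are also the nuclear partners of beta-catenin in Wnt signalling, Tcf7l2 is made by young oligodendrocytes and Lef1 by brain endothelial cells.

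The start regions of the transporter gene and of the thalamic Wnt factor are shown because the factor's own family has a known recognition motif and the transporter is the member with the highest level. RefSeq promoters of the GRCr8 build, 250 bases before to 50 after the start, were held for 4 of the 9 genes (Slc17a6, Tcf7l2, Lef1 and Pou4f1). The Slc17a6 promoter is chr1:110348197-110348496 on the plus strand, with the TCF/LEF motif CTTTGAT in capitals, and the Tcf7l2 promoter is chr1:264791085-264791384 on the plus strand, with the GC box GGGCGG in capitals on either strand.
Slc17a6: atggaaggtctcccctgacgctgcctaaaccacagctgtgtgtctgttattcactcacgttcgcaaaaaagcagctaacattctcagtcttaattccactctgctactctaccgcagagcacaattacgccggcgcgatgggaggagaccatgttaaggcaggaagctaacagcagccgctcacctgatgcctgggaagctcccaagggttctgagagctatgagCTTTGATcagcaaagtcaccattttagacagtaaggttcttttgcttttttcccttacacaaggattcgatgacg
Tcf7l2: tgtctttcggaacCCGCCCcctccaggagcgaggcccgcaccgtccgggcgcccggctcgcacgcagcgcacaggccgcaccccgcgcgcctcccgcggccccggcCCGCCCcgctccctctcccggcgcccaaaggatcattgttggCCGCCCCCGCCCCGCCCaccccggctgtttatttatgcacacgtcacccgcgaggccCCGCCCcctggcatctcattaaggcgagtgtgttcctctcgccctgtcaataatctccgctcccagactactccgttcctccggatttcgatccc

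The motif CTTTGAT occurred once in the Slc17a6 promoter, its first base 25 bases before the start, and in none of the other 3. Of all 33469 promoters searched on both strands, 3.63% held it. GGGCGG had 6 matches in the Tcf7l2 promoter, some overlapping, and 1 in that of Lef1, and 33.1% of all promoters held it. The Tcf7l2 promoter was 70.3% G and C and that of Slc17a6 49.0%, beside a median of 51.7% over all promoters. The E-box CAGGTG matched 3 times in the Pou4f1 promoter and once each in those of Slc17a6 and Lef1, with a match in 18.8% of all promoters. TAATTA, a homeodomain motif held by 5.36%, and TGTTTAC, a forkhead motif held by 3.78%, matched none of the 4. A match is a run of letters and says nothing of binding.

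All 9 genes had a higher mean level in the VTA than in the NAC, where 54% of 20603 genes did so, and 6 of the 9 were higher in every VTA library than in any NAC library, beside 12.3% of all genes. Those 6 were Slc17a6, Pou4f1, Barhl1, Foxb1, Lhx5 and Shox2. Since the genes were chosen for where they are known to be made, and region and table cannot be told apart, these levels are a description without a test. The plot of levels by library shows the 9 genes side by side.

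**Figure D1:**
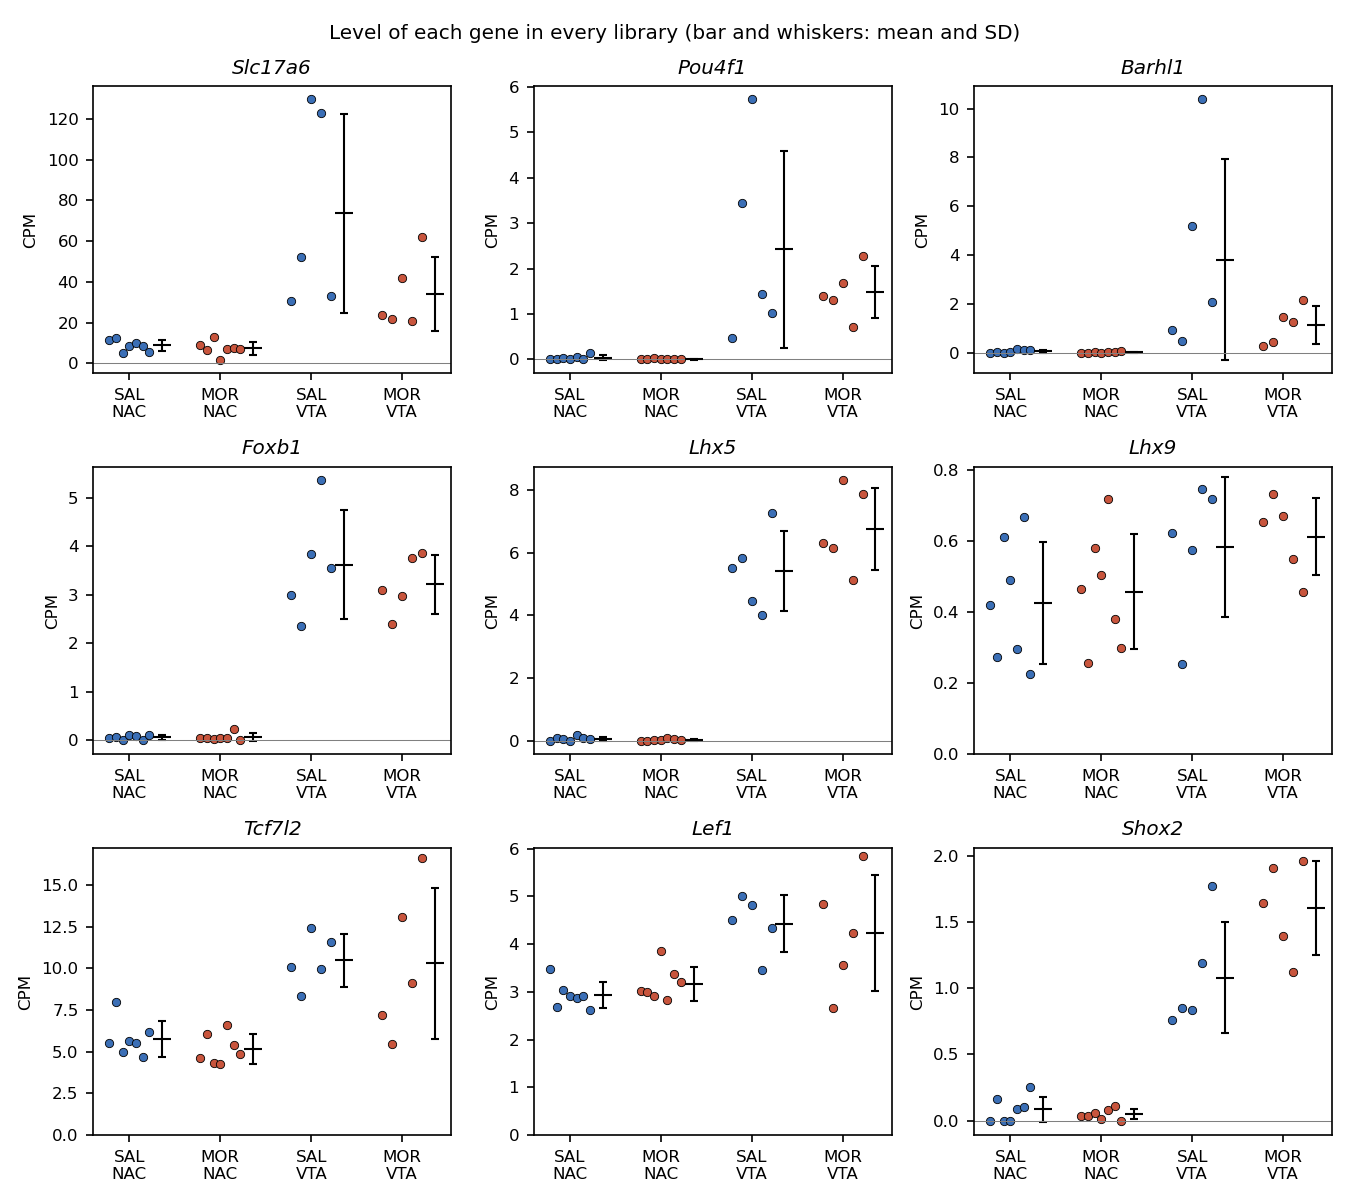
CPM (linear axis, from 0) of each of the 9 genes in every library, by region and sire group, with the mean and SD of each group as a bar with whiskers. Slc17a6 stands at 122.7 and 129.8 CPM in 2 SAL-sired VTA libraries and at 20.6 to 62.2 CPM in the other 8, while Pou4f1, Barhl1, Foxb1, Lhx5 and Shox2 lie near 0 in the NAC.

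Slc17a6, the transporter, was the most abundant of the 9 in both regions. It averaged 53.8 ± 40.5 CPM (SD, n = 10) in the VTA and 8.07 ± 3.06 CPM (SD, n = 14) in the NAC. Its VTA mean without SAL-sired VTA 3 and 4 was 35.7 ± 15.2 CPM (SD, n = 8). In SAL-sired VTA libraries 1 to 5 it stood at 30.4, 52.2, 129.8, 123 and 32.9 CPM. In MOR-sired VTA libraries 1 to 5 it stood at 23.8, 21.5, 41.99, 20.6 and 62.2 CPM. The highest levels were those of SAL-sired VTA 3 and 4, and the remaining SAL-sired libraries lay inside the MOR-sired range. In the NAC its lowest, median and highest levels were 5.18, 8.67 and 12.6 CPM in SAL-sired and 1.59, 7.22 and 12.85 CPM in MOR-sired libraries, which overlapped.

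Of the other vesicular glutamate transporters, Slc17a7, that of cortical neurons, averaged 943 ± 386 CPM (SD, n = 14) in the NAC and 13.2 ± 25.5 CPM (SD, n = 10) in the VTA, with a highest VTA level of 84.5 CPM. Slc17a8 (VGLUT3) averaged 0.834 ± 0.414 CPM (SD, n = 10) in the VTA. Slc17a6 was therefore the leading vesicular transporter by mean level in the VTA punches and Slc17a7 in the NAC punches. In the SAL-sired VTA library with 84.5 CPM of Slc17a7 the order was reversed, since Slc17a6 exceeded 62.2 CPM only in SAL-sired VTA 3 and 4. Those held 1.08 and 2.32 CPM of Slc17a7.

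Among the mammillary factors, Barhl1 varied most between punches. It stood at 0.928, 0.505, 5.21, 10.4 and 2.08 CPM in SAL-sired VTA 1 to 5 and at 0.305, 0.452, 1.49, 1.26 and 2.17 CPM in MOR-sired VTA 1 to 5. The highest level was 34.1 times the lowest, and SAL-sired VTA 3 and 4 were again above all others. Its VTA mean was 2.48 ± 3.13 CPM (SD, n = 10) and, without that pair, 1.15 ± 0.728 CPM (SD, n = 8). Foxb1, a forkhead factor needed for the mammillary bodies to form, ranged more narrowly. Its levels were 2.99, 2.36, 3.84, 5.37 and 3.55 CPM in SAL-sired VTA 1 to 5 and 3.11, 2.39, 2.96, 3.75 and 3.85 CPM in MOR-sired VTA 1 to 5. SAL-sired VTA 4 was the highest for both genes.

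Lhx5, a LIM-homeodomain factor, ranged from 4.01 to 8.31 CPM in the VTA. It stood at 5.51, 5.83, 4.46, 4.01 and 7.25 CPM in SAL-sired VTA 1 to 5 and at 6.31, 6.13, 8.31, 5.13 and 7.88 CPM in MOR-sired VTA 1 to 5. SAL-sired VTA 3 and 4, the highest for Slc17a6 and Barhl1, were the lowest for Lhx5. MOR-sired VTA 5, a library with Xist, was among the higher libraries for both Barhl1 (2.17 CPM) and Lhx5 (7.88 CPM). Over the 6 libraries without Xist, Barhl1 and Lhx5 ran in opposite order (Pearson's r = -0.991, exact permutation p = 0.00139, adjusted p = 0.0333). Spearman's rho was -1.0 there (adjusted exact permutation p = 0.0667). Over all 10 VTA libraries r was -0.51 (permutation p = 0.133, adjusted p = 0.382), and without SAL-sired VTA 3 and 4 it was 0.562. In the NAC, Barhl1, Foxb1 and Lhx5 averaged 0.0452, 0.0592 and 0.0540 CPM. Of the 14 NAC libraries, 5, 3 and 4 held a count of 0 for them, which allows a level of up to 0.0727 to 0.137 CPM by library (3 counts, counting error only).

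Pou4f1, the factor of red nucleus and habenula neurons, averaged 1.95 ± 1.57 CPM (SD, n = 10) in the VTA. It stood at 0.464, 3.44, 5.73, 1.44 and 1.01 CPM in SAL-sired VTA 1 to 5 and at 1.40, 1.31, 1.69, 0.723 and 2.28 CPM in MOR-sired VTA 1 to 5. SAL-sired VTA 3 was the highest and SAL-sired VTA 2 the next. The same 2 libraries led for Spp1 (osteopontin) at 167 and 94.2 CPM and for Nefh, the heavy neurofilament chain of large axons, at 452 and 302 CPM, both made by the large neurons of the red nucleus. Their ranges over the 8 libraries with Tph2 reached down to 14.7 CPM for Spp1 and 138 CPM for Nefh. The other 2 genes of the red nucleus list did not share one order: Emx2 was highest in SAL-sired VTA 2 and 3, at 2.84 and 2.41 CPM, whereas Nkx6-1 stood at 2.69 CPM in SAL-sired VTA 3, below its 3.16 to 6.35 CPM in the 8 libraries with Tph2. In the NAC, 7 of 14 libraries held no Pou4f1 count.

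The thalamic group was of 2 kinds. Tcf7l2 and Lef1 were present in both regions, with overlapping ranges. Tcf7l2 ran from 5.48 to 16.6 CPM in the VTA and from 4.23 to 7.96 CPM in the NAC, and Lef1 from 2.67 to 5.86 CPM in the VTA and from 2.63 to 3.86 CPM in the NAC. Lhx9 was low in both, at 0.597 ± 0.151 CPM (SD, n = 10) in the VTA and 0.441 ± 0.161 CPM (SD, n = 14) in the NAC. For these 3 genes the levels did not set the VTA punches apart as a label of subcortical glutamatergic neurons would, so they are named here by gene rather than by cell type. Tcf7l2 and Lef1 are also made by glial and vascular cells, and the summed level of 7 oligodendrocyte lineage genes was 23530 to 34300 CPM in the VTA and 7869 to 11200 CPM in the NAC. The summed level of 6 endothelial genes was 313 to 422 CPM in the VTA and 228 to 284 CPM in the NAC. Their part in the Tcf7l2 and Lef1 levels was not tested.

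Shox2, a homeodomain factor of thalamic and midbrain neurons, was close to 0 in the NAC (0.0663 ± 0.0726 CPM, SD, n = 14). In SAL-sired VTA 1 to 5 it stood at 0.762, 0.849, 0.832, 1.19 and 1.77 CPM. In MOR-sired VTA 1 to 5 it stood at 1.64, 1.91, 1.39, 1.12 and 1.96 CPM. SAL-sired VTA 1, 2 and 3 were the lowest, and SAL-sired VTA 4 and 5 lay inside the MOR-sired range.

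By mean level the order in the VTA was Slc17a6, Tcf7l2, Lhx5, Lef1, Foxb1, Barhl1, Pou4f1, Shox2 and Lhx9. Slc17a6 was above Tcf7l2, and Shox2 above Lhx9, with no overlap of their ranges. The 6 other pairs of neighbours in that order overlapped. In the NAC the order was Slc17a6, Tcf7l2, Lef1 and Lhx9, followed by the 5 genes near 0. There the ranges separated only between Tcf7l2 and Lef1 and between Lef1 and Lhx9.

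The 2 libraries almost without Tph2 differed from the other 8 in other markers of position. Both were above the other 8 for Slc17a6 and Barhl1 among the 9 genes and below them for Lhx5, beside 6.79% (above) and 1.24% (below) of 19923 genes. The other 6 genes overlapped. Barhl2, the paralog of Barhl1, stood at 10.1 and 22.7 CPM in SAL-sired VTA 3 and 4 and at 0.162 to 1.89 CPM in the other 8. Lmx1a, made by dopamine and subthalamic neurons, stood at 19.3 and 29.1 CPM against 9.20 to 17.9 CPM. None of the 10 genes of the dopamine neuron list was above the other 8 in both libraries, and some were below. Th overlapped, at 1293 and 1504 CPM against 1398 to 2881 CPM. The subthalamic list was mixed, and Foxp2 overlapped, at 10.5 and 10.4 CPM against 5.79 to 10.8 CPM. Gad2, an enzyme of GABA synthesis, was lower in both, at 78.0 and 72.7 CPM against 83.6 to 134 CPM. Both libraries belong to the SAL-sired group. Whether the position of the punch set these levels was not tested.

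Whether the genes varied together between punches was asked with correlations of log2(CPM + 1) over the 10 VTA libraries. The family held 72 relations, the 36 pairs among the 9 genes and the 36 pairs of a gene with Th, Tph2, Gad2 or Slc17a7. The permutation p was under 0.05 for 9 of them before adjustment, and 1 passed after Benjamini-Hochberg adjustment, Barhl1 with Foxb1. Its Pearson r was 0.877 (permutation p = 0.00061, adjusted p = 0.0439), and Spearman's rho was 0.782 (permutation p = 0.0102, adjusted p = 0.194). Without SAL-sired VTA 3 and 4, the libraries farthest from the median of Barhl1, r was 0.744 over 8 libraries (exact permutation p = 0.038, adjusted p = 0.397). Leaving out each library in turn, r ran from 0.745 to 0.909, and the call was kept in 3 of 10 cases, those without SAL-sired VTA 1, MOR-sired VTA 1 or MOR-sired VTA 4. It was lost without any one of the remaining 7 libraries (SAL-sired VTA 2, 3, 4 and 5 and MOR-sired VTA 2, 3 and 5), with adjusted permutation p-values of 0.0614 to 0.282. The call was also lost on TMM-scaled CPM (r = 0.831, adjusted permutation p = 0.0818), with a pseudocount of 0.1 (r = 0.863, adjusted permutation p = 0.0857) and without the 4 Xist libraries (r = 0.923, n = 6, exact permutation p = 0.0167, adjusted p = 0.15). It was kept on residuals of the sire group means (r = 0.895, adjusted permutation p = 0.0439).

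Slc17a6 with Barhl1 had r = 0.835 (permutation p = 0.00308, adjusted p = 0.0904) and rho = 0.745, which missed the threshold. Without SAL-sired VTA 3 and 4 its r was 0.438, so the relation rested on these libraries. Slc17a6 with Pou4f1 had r = 0.687 (permutation p = 0.0262, adjusted p = 0.268) and rho = 0.782, and r was 0.709 without the same libraries. For Lhx5 with Gad2, r was 0.778 (permutation p = 0.00839, adjusted p = 0.121) and rho 0.782, with r = 0.659 after leaving out SAL-sired VTA 4 and MOR-sired VTA 3. For Slc17a6 with Gad2, r was -0.675 (permutation p = 0.0335, adjusted p = 0.268) and -0.108 without SAL-sired VTA 3 and 4. None of these 4 relations passed adjustment. By Tph2 the libraries fell into separate sets of 2 and 8, so an r over all 10 largely sets those 2 apart. Over all 10, r with Tph2 was -0.856 for Slc17a6, -0.86 for Barhl1 and 0.687 for Lhx5 (adjusted permutation p = 0.0904, 0.0904 and 0.268). Within the 8, r was -0.377 for Slc17a6, -0.29 for Barhl1 and -0.030 for Lhx5 (exact permutation p = 0.364, 0.497 and 0.949).

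**Figure D2:**
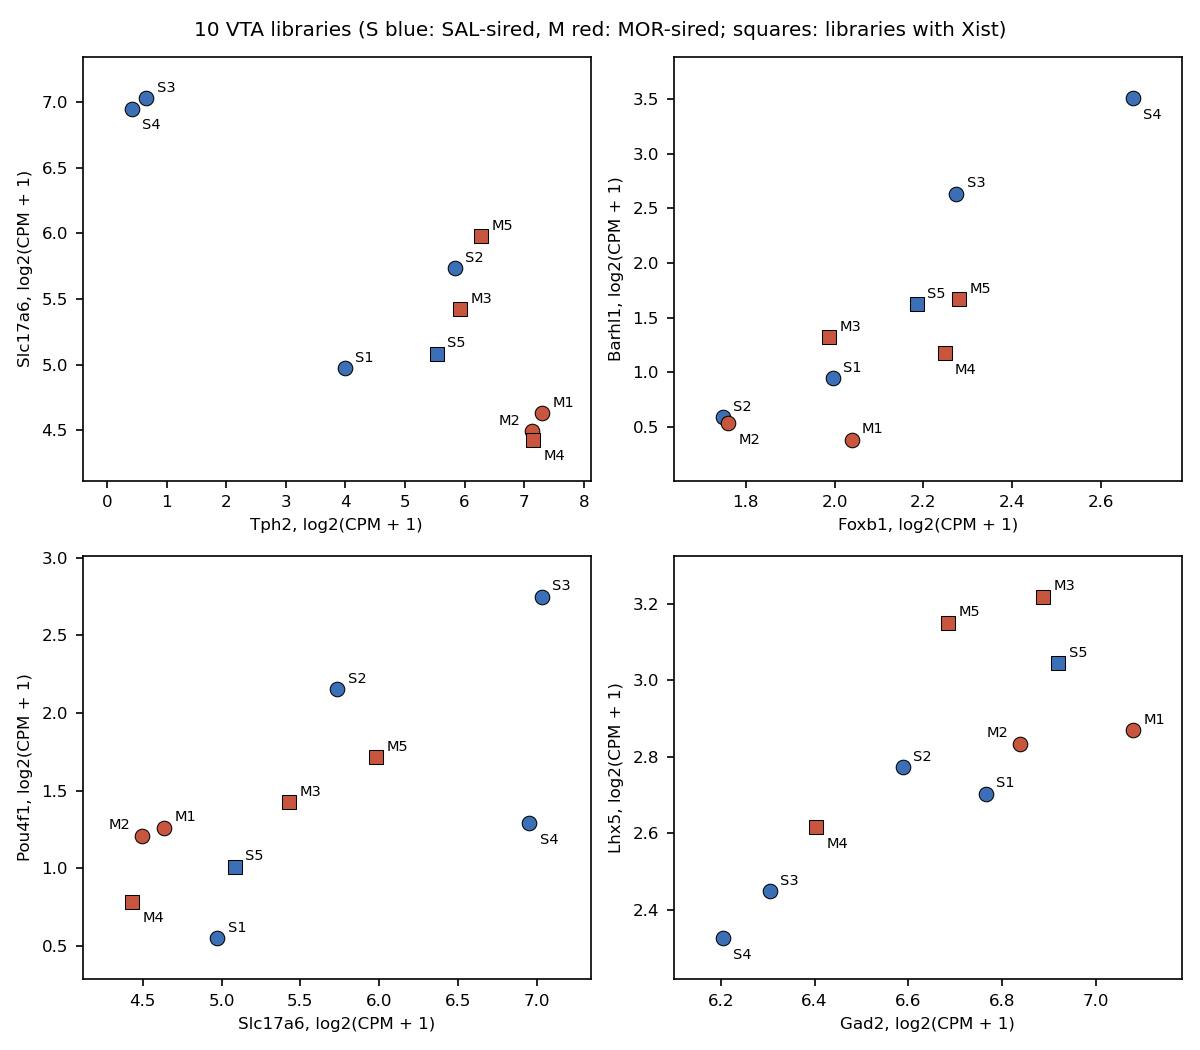
Log2(CPM + 1) of 4 pairs of genes, each point 1 of the 10 VTA libraries (S, SAL-sired, blue; M, MOR-sired, red; squares, libraries with Xist). SAL-sired VTA 3 and 4 sit alone at Tph2 of 0.573 and 0.330 CPM, with Slc17a6 at 129.8 and 122.7 CPM, and Barhl1 and Foxb1 line up with r = 0.877.

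In the NAC, Slc17a6, Tcf7l2 and Lef1 had means of at least 1 CPM and gave 15 relations over 14 libraries. Slc17a6 with Slc17a7 was the relation that passed, with r = 0.849 (permutation p = 0.00271, adjusted p = 0.0406), and by rho it did not, at 0.424 (permutation p = 0.131, adjusted p = 0.614). When MOR-sired NAC 3 and 4 were left out r was 0.437, so it rested on these libraries. MOR-sired NAC 4 had the lowest level of both genes, 1.59 CPM of Slc17a6 and 111 CPM of Slc17a7. The part of cortical tissue in this relation was not tested. Tcf7l2 with Lef1 had r = -0.549 (permutation p = 0.044, adjusted p = 0.22) and rho = -0.626 in the NAC, and r = -0.233 without SAL-sired NAC 2 and MOR-sired NAC 4. In the VTA the same pair had r = 0.543 (permutation p = 0.103, adjusted p = 0.354), and the difference between the regions was not tested.

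For 4 of the genes, the 5 most similar genes over the 10 VTA libraries were found by Pearson's r of log2(CPM + 1) among 11740 genes with a mean of at least 5 CPM. They are a description, and every r was computed on the same libraries and depths. Nearest to Slc17a6 were Cacna1i (0.982), a T-type calcium channel, Tnik (0.968), Cdh24 (0.966), Cpne9 (0.964) and Atp8b2 (0.964). Without SAL-sired VTA 3 and 4 they kept r of 0.893 to 0.959, and 5.72% of genes had an r over 0.8 with Slc17a6. Among those nearest to Pou4f1 were Gpat3 (0.947), Kcnk1 (0.947), Htra1 (0.946) and Camk1d (0.944). Nearest to Foxb1 were Spmip6 (0.926), Lyrm9 (0.921), Zfp521 (0.921), Hpcal1 (0.916) and Inafm1 (0.911). Nearest to Tcf7l2 were Unc80 (0.967), Cisd3 (0.956), Ubr4 (0.954), Nup188 (0.948) and Zdhhc1 (0.944). An r over 0.8 was held by 1.41% of genes with Pou4f1, 0.988% with Foxb1 and 4.92% with Tcf7l2. Without SAL-sired VTA 3 and 4, r was 0.887 to 0.955 for the neighbours of Pou4f1 and 0.95 to 0.97 for those of Tcf7l2. For those of Foxb1 it was 0.787 to 0.925. None of the 9 genes was among these neighbours, and of the 9 only Slc17a6, Tcf7l2 and Lhx5 had VTA means high enough to be searched.

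The question the study put is whether a father's morphine intake altered gene expression in his offspring. In the VTA none of the 9 genes was called between MOR-sired and SAL-sired libraries by edgeR's quasi-likelihood test (adjusted p under 0.05), where 0% of 19923 genes were called. The count of 0 held with limma-voom, while DESeq2 called 0.377% of the genes it tested, none of the 9 among them. At an unadjusted p under 0.05 there were 3 of the 9 (33.3%), beside 5.31% of all genes. Slc17a6 was lower in MOR-sired libraries, beside 2.56% of all genes, and Lhx5 and Shox2 were higher, beside 2.75%. For all 9 the libraries of the sire groups overlapped. Every MOR-sired library was above every SAL-sired one for 0.171% of all genes and below for 1.06%. The genes were measured in the same libraries, so these results are not independent. The 9 genes were also chosen with earlier results of these data known, so their share is a description.

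The mean of Slc17a6 was 73.6 ± 48.9 CPM (SD, n = 5) in SAL-sired and 34.0 ± 18.0 CPM (SD, n = 5) in MOR-sired VTA libraries, a log2 fold change of -1.05 (SE 0.46, edgeR adjusted p = 0.934). Without the 4 Xist libraries the log2 fold change was -1.72 (edgeR adjusted p = 0.753). That fit set SAL-sired VTA 1 to 4, with SAL-sired VTA 3 and 4 still included, against MOR-sired VTA 1 and 2 only. Without SAL-sired VTA 3 and 4 the log2 fold change was -0.13 (edgeR adjusted p = 0.986). Most of the size of the difference was thus lost without the pair of libraries almost lacking Tph2. The summed level of 3 serotonin neuron genes was 0.842 to 93.8 CPM in SAL-sired and 99.7 to 263 CPM in MOR-sired VTA libraries, with no overlap, and its part in the other differences was not tested.

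Barhl1 averaged 3.82 ± 4.11 CPM (SD, n = 5) in SAL-sired and 1.14 ± 0.771 CPM (SD, n = 5) in MOR-sired VTA libraries. Its log2 fold change of -1.67 (SE 0.79, edgeR adjusted p = 0.949) became 0.0093 without SAL-sired VTA 3 and 4 and -3.30 without the Xist libraries. Foxb1 had a log2 fold change of -0.10 (SE 0.21), and 0.18 without SAL-sired VTA 3 and 4. Pou4f1 had -0.62 (SE 0.57, edgeR adjusted p = 0.985), and -0.083 without SAL-sired VTA 3 and 4. With each library left out in turn it ranged from -0.88 to -0.038. The lowest and highest levels of these genes were thus both within the SAL-sired group, except for the lowest of Barhl1.

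Lhx5 averaged 5.41 ± 1.27 CPM (SD, n = 5) in SAL-sired and 6.75 ± 1.31 CPM (SD, n = 5) in MOR-sired VTA libraries. The log2 fold change was 0.40 (SE 0.18, edgeR adjusted p = 0.934), and 0.19 (edgeR adjusted p = 0.917) without SAL-sired VTA 3 and 4. Shox2 averaged 1.08 ± 0.418 CPM (SD, n = 5) and 1.60 ± 0.353 CPM (SD, n = 5), a log2 fold change of 0.64 (SE 0.28, edgeR adjusted p = 0.928). It was 0.57 (edgeR adjusted p = 0.886) without SAL-sired VTA 3 and 4. Without the Xist libraries it was 1.14 (edgeR adjusted p = 0.637), and with each library left out in turn it stayed between 0.52 and 0.91. Of the 3 genes under an unadjusted 0.05, Shox2 was the one whose log2 fold change moved by less than 1.5 times as a ratio of log2 values without the libraries almost lacking Tph2. Without those libraries none of the 9 genes, Shox2 included, had an unadjusted edgeR p under 0.05.

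Tcf7l2, Lef1 and Lhx9 had log2 fold changes of 0.04 (SE 0.23), 0.0036 (SE 0.17) and 0.12 (SE 0.28) in the VTA. Without the Xist libraries Tcf7l2 was -0.54 (edgeR adjusted p = 0.693), and the libraries left out include MOR-sired VTA 3 and 5, which had the highest Tcf7l2, 13.1 and 16.6 CPM. The plot of sire differences shows each gene with and without these libraries.

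**Figure D3:**
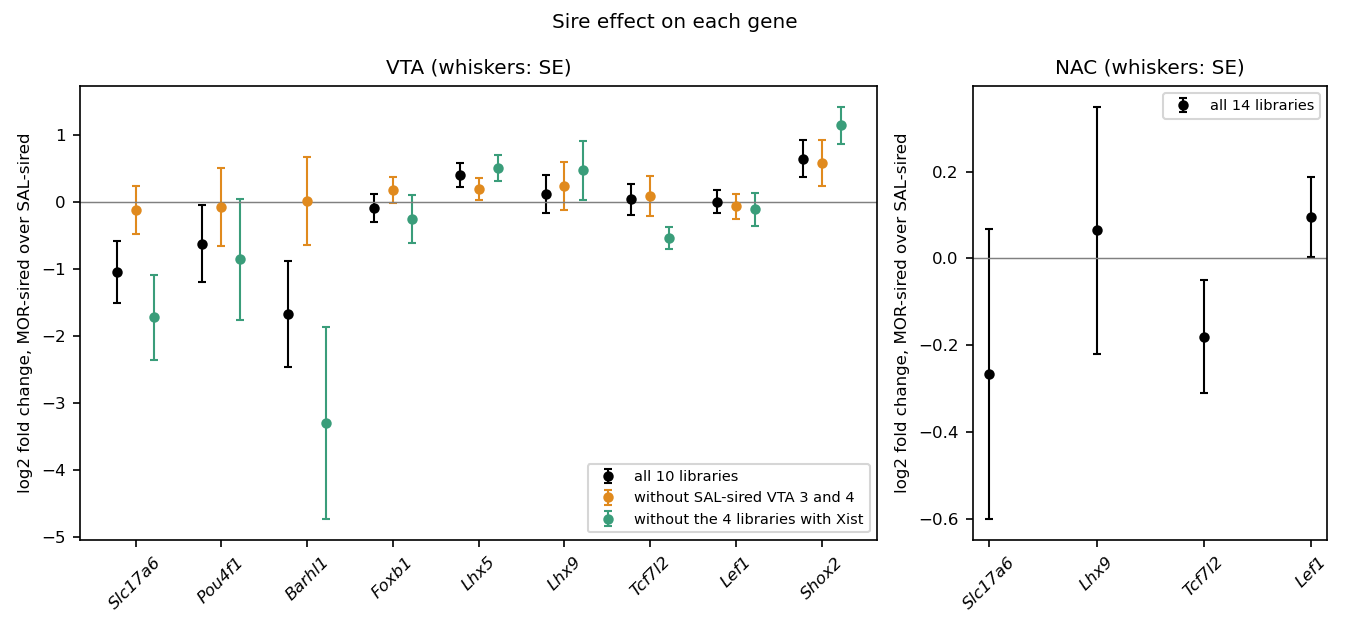
Log2 fold change, MOR-sired over SAL-sired, with its SE, for each gene tested in the VTA (left, with all 10 libraries, without SAL-sired VTA 3 and 4, and without the 4 Xist libraries) and in the NAC (right, 14 libraries). Slc17a6 lies at -1.05 with all libraries and at -0.13 without SAL-sired VTA 3 and 4, and Shox2 at 0.64 and 0.57.

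In the NAC, 4 of the 9 genes passed the filter on low counts and none was called, beside 0% of 18220 genes by edgeR, 0.341% by DESeq2 and 0.285% by limma-voom. None of the 4 had an unadjusted p under 0.05, beside 6.18% of all genes. The log2 fold changes were -0.27 (SE 0.33) for Slc17a6, 0.06 (SE 0.28) for Lhx9, -0.18 (SE 0.13) for Tcf7l2 and 0.10 (SE 0.09) for Lef1. The libraries of the sire groups overlapped for each of them, and were separate for 0.0604% (MOR-sired above) and 0.022% (MOR-sired below) of all genes. The remaining 5 were too low in the NAC to be tested. The sire effect in the VTA minus that in the NAC, tested in one edgeR fit over the 24 libraries, was called for none of the 9 genes, beside 0% of 20603 genes, and none of the 9 had an unadjusted p under 0.05, beside 4.78% of all genes. For Slc17a6 this difference of log2 fold changes was -0.76 (SE 0.58, edgeR adjusted p = 1.0), and for Tcf7l2 0.23 (SE 0.26). For the 5 genes near 0 in the NAC it cannot be interpreted.

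The lists of neighbouring nuclei and cell types held 97 further genes, of which 91 were tested in the VTA. These genes were chosen with earlier results of these data known, so their shares are a description without a test. None was called by edgeR, and 15 (16.5%) had an unadjusted p under 0.05, beside 5.31% of all genes. The serotonin and GABA neuron lists supplied 3 each of the 15. DESeq2 called 2 of them, beside 0.377% of all genes: Fev, a serotonin neuron factor (log2 fold change 2.50, SE 0.645, adjusted p = 0.0327), and Gata2, a factor of midbrain GABA neurons (log2 fold change 0.67, SE 0.16, adjusted p = 0.0104). For both genes SAL-sired VTA 3 and 4 lay below the other 8 libraries. Without that pair Fev had 1.88 (SE 0.64) and Gata2 0.55 (SE 0.15), each with an edgeR adjusted p of 0.828. DESeq2 was not run without the pair. Of the 7 mammillary and posterior hypothalamic genes tested, 5 were lower and 2 higher in MOR-sired libraries, with a median log2 fold change of -0.39 beside -0.0065 for all genes. Without SAL-sired VTA 3 and 4, 4 were lower and 3 higher, with a median of -0.11. Uncx and Pmch, of that list, had -0.15 (SE 0.18) and -0.39 (SE 0.27). The mammillary and subthalamic lists share a gene.

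Of 4 red nucleus genes, 3 were lower and 1 higher, with a median of -0.40. Spp1, Nefh and Emx2 had -0.52 (SE 0.64), -0.28 (SE 0.30) and -0.57 (SE 0.31), and Nkx6-1, the one with an unadjusted p under 0.05, had 0.48 (SE 0.19, edgeR adjusted p = 0.928). When SAL-sired VTA 3 and 4 were left out, 3 were higher and 1 lower, with a median of 0.09. Of 6 thalamic genes tested, 4 were lower and 2 higher, with a median of -0.10, and Rora had -0.20 (SE 0.11). The thalamic median, over 7 genes, was -0.019 without that pair. Of 7 habenula and interpeduncular genes, 4 were higher and 3 lower, with a median of 0.02, and without that pair 1 was higher and 6 lower, with a median of -0.12. Summed over its genes, the thalamic list stood at 36.9 to 56.9 CPM in the VTA and at 57.0 to 76.0 CPM in the NAC. The habenula and interpeduncular list stood at 103 to 199.5 CPM and at 104 to 254 CPM. The levels of these 2 lists thus did not mark the VTA punches by neighbouring nuclei. The red nucleus list summed higher in the VTA (162 to 624 CPM) than in the NAC (44.3 to 88.7 CPM), although its Emx2 averaged higher in the NAC. The 7 GABA neuron genes were all higher in MOR-sired libraries by value, with a median of 0.44. SAL-sired VTA 3 and 4 were below the other 8 libraries for 5 of these 7 genes, and without that pair 6 of 7 were higher, with a median of 0.30. The 3 serotonin neuron genes had a median of 2.40, and 1.66 without the pair. Of 10 dopamine neuron genes, 9 were higher and 1 lower, with a median of 0.18, and Th and Slc6a3, the dopamine transporter, had 0.31 (SE 0.23) and 0.16 (SE 0.24). With that pair left out, 4 dopamine neuron genes were higher and 6 lower, with a median of -0.028. None of these passed edgeR's test.

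Of the 4 subthalamic genes, 3 were lower and 1 higher in the MOR-sired VTA, with a median of -0.16, and Lmx1a and Foxp2 had -0.31 (SE 0.20) and 0.0085 (SE 0.12). The 5 cortical glutamatergic genes tested were all lower by value, with a median of -0.83, and -1.72 over 6 genes without SAL-sired VTA 3 and 4. The summed level of the 6 genes was 31.4 to 158.7 CPM (median 37.7 CPM) in SAL-sired and 31.2 to 41.2 CPM in MOR-sired VTA libraries. Slc17a7 had -1.72 (SE 1.30), and its highest VTA library was a SAL-sired one. That 1 library, at 84.5 CPM, carried the SAL-sired mean of 20.7 CPM. Its part in the list medians was not tested. The 7 oligodendrocyte lineage genes were all higher by value, with a median of 0.18, and the 6 endothelial and 5 striatal genes had medians of 0.05 and 0.04. Without that pair the oligodendrocyte median was 0.085, with 6 of 7 higher, and those of the subthalamic, endothelial and striatal lists were -0.037, 0.031 and -0.022. None passed edgeR's test. In the NAC, 77 of the 97 genes were tested, none was called and 4 (5.19%) had an unadjusted p under 0.05, beside 6.18% of all genes, and the list medians lay between -0.23 and 0.04.

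Among genes that act with the 9, the 6 paralogs tested in the VTA had a median of -0.04 (-0.076 over 7 without SAL-sired VTA 3 and 4), and Barhl2 had the largest log2 fold change among these paralogs, -3.22 (SE 0.92, edgeR adjusted p = 0.793), from 7.50 to 0.755 CPM. Its SAL-sired mean was carried by SAL-sired VTA 3 and 4, and without them the log2 fold change was -0.99 (SE 0.56, edgeR adjusted p = 0.868). The 12 genes of canonical Wnt signalling, the pathway of Tcf7l2 and Lef1, had a median of -0.03 in the VTA, with 5 higher and 7 lower, and -0.06 in the NAC, with 3 higher and 9 lower. Ctnnb1, which encodes beta-catenin, had -0.03 (SE 0.04) in the VTA. The 7 genes of glutamate neurotransmission had a median of -0.05 in the VTA, with 2 higher and 5 lower.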

How the data were processed

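RNA-seq tables of 14 NAC and 10 VTA libraries were used. The authors deposited estimated counts by gene, which per the submitters' processing notes came from Trim Galore and kallisto (versions, build and annotation not given in the sources used here), and per the file names were scaled by the authors from transcript abundances (TPM) to each library's total. They carry no correction between libraries and are not read numbers, so short transcripts weigh more than in a read count. All 37403 gene identifiers matched a RefSeq symbol.

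Groups came from the sample labels. CPM is the estimated count over the library total. For the sire comparisons the counts were rounded to whole numbers and tested with edgeR 4.0.16 (filterByExpr, TMM, quasi-likelihood F-test, R 4.3.3) over the whole table of each region, with Benjamini-Hochberg adjustment over all genes kept and a threshold of 0.05; all p-values are two-sided. The difference between regions was a contrast over 24 libraries with 4 group means. The fits and correlations were tested on simulated data. Alternatives were RLE factors, library totals only, DESeq2 1.42.0, limma-voom (limma 3.58.1), no filter, each library left out, a replicate block, a covariate for Xist over 10 CPM, libraries left out by Xist and, added after seeing the data, by Tph2 (under 1 CPM). For the correlations they were a pseudocount of 0.1, TMM-scaled CPM, residuals of the sire group means, the same left-out libraries and, also added after seeing the data, each library left out. Correlations used log2(CPM + 1) with 100000 permutations, or all orders for fewer than 10 libraries.

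The 9 genes, the gene lists and the anchors were chosen with earlier results of these data known. All 9 are named in both regions, with the 5 genes most similar to each of Slc17a6, Foxb1, Pou4f1 and Tcf7l2 in the VTA, up to 4 genes of each list by VTA mean, and the anchors Th, Tph2, Gad2, Slc17a7 and Slc6a3. Some genes that this rule names are not reported here. Gata2 falls outside that rule and was named after its values were seen. Library totals of 21.9 to 43.5 M (M, 1000000) set the precision, and 3 counts correspond to 0.069 to 0.137 CPM. Intervals for counts at 0 cover counting error only. Promoter sequences and coordinates are from RefSeq (GRCr8); the build of the counts was not matched to it, and protein sequences were not used here.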

Additional observations from a re-analysis of the deposited data

Results flagged for a closer look

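In 36 groups of libraries (each of the 9 genes in each region and sire group), the highest and lowest library were compared with the others by Dixon's ratio at the 95% level, and 2 groups had a library standing apart; chance gives about 1 in 20. Pou4f1 was at 0.14 CPM in SAL-sired NAC 7 and at 0 to 0.0558 CPM in the other SAL-sired NAC libraries. Foxb1 was at 0.233 CPM in MOR-sired NAC 6 and at 0 to 0.0419 CPM in the other MOR-sired NAC libraries. Both levels rest on a handful of estimated counts, and 3 counts correspond to 0.0727 to 0.137 CPM in the NAC.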

How the results depend on the processing

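None of the 9 genes was called between sire groups under any alternative run (smallest adjusted p 0.495, Shox2 in the VTA without SAL-sired VTA 5). The count of genes called between sire groups, 0 in each region by edgeR, was 74 by DESeq2 and 52 by limma-voom in the NAC and 115 by DESeq2 in the VTA, where DESeq2 called 2 list genes; it stayed at 0 with each library left out. The sire difference between regions was called for 7 genes without the Xist libraries, and none otherwise. Replicate numbers did not pair the samples (same-numbered libraries correlated over 0.1 in 0 of 7 NAC and 2 of 5 VTA pairs, and were closest to their own number in 0 of 7 and 2 of 5), and the replicate block called 0 genes in both regions. The cause of the changes below was not tested.

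In the VTA, the log2 fold change of Tcf7l2 turned to -0.29 with an Xist covariate, -0.022 on library totals, -0.0095 by limma-voom, -0.033 with the replicate block and -0.54 without the Xist libraries. That of Lef1 turned to -0.045, -0.066, -0.018, -0.015 and -0.11 under the same settings and to -0.069 without the libraries with Tph2 under 1 CPM. Without those libraries Barhl1 was 0.0093 and Foxb1 0.18, and by limma-voom Foxb1 was 0.00016. The difference between regions turned to 0.15 for Slc17a6, 1.27 for Barhl1 and 0.25 for Foxb1 without the libraries with Tph2 under 1 CPM, to 0.0055 for Foxb1 with no filter and to -0.35 for Tcf7l2 without the Xist libraries. With each library left out, signs changed within -0.22 to 0.092 for Foxb1, -0.11 to 0.10 for Lef1, -0.056 to 0.24 for Lhx9 and -0.16 to 0.17 for Tcf7l2 in the VTA, -0.064 to 0.20 for Lhx9 in the NAC, and, for the difference, -0.87 to 0.43 for Barhl1, -0.22 to 0.84 for Foxb1, -0.19 to 0.019 for Lef1 and -0.10 to 0.20 for Lhx9.

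The number of VTA correlations passing adjustment, 1 of 72, was 0 on TMM-scaled CPM, 0 with a pseudocount of 0.1, 3 without the Xist libraries, 2 on residuals of the sire group means, 0 without the libraries with Tph2 under 1 CPM, and 0 to 3 with each library left out. Without the Xist libraries the 3 were Barhl1 with Lhx5, Barhl1 with Tph2 and Lhx5 with Tph2. On residuals the 2 were Barhl1 with Foxb1 and Barhl1 with Tph2. Both settings kept the libraries with Tph2 under 1 CPM. Lhx5 with Tph2 had r = 0.687 over all 10 libraries and -0.030 without those with Tph2 under 1 CPM. Scaling by library totals moved the median of all genes in the VTA to -0.09, within 0.1 of 0. Depth limits the 5 genes near 0 in the NAC, where a few counts set each value.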
